A study of Mus musculus with 3 samples.

Results

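The Gimap genes encode the GTPases of immunity-associated proteins, and all 8 mouse members examined here, Gimap1, Gimap3, Gimap4, Gimap5, Gimap6, Gimap7, Gimap8 and Gimap9, were present in the deposited table of 23393 usable gene rows. They were chosen by gene symbol, from 1 cluster on chromosome 6, and no other row of the table carried a Gimap symbol. RNA had been profiled in 3 sorted populations of bone marrow from C57BL/6 mice, with 1 library per population. Map17-GFP+ HSCs and Map17-GFP- HSCs were hematopoietic stem cells of the LSK gate (lineage-negative, Sca-1-positive, c-Kit-positive) that were also CD48-negative and CD150-positive, divided by a GFP reporter for Map17, the product of Pdzk1ip1. The third population, Map17-GFP- MPPs, held multipotent progenitors of the same LSK gate that were CD48-positive and CD150-negative. All groups therefore shared the strain and the LSK gate. The labels give each population's reporter status but do not describe the reporter allele, and the age, sex and number of the mice behind a library are not stated in the labels. With 1 library per population there was no replicate, no test was made, and every difference below is a difference between libraries. The family had been chosen with its values in these libraries known, so its levels are given as a description. In bulk RNA of sorted cells, fewer cells of a type and less RNA per cell cannot be told apart.

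GIMAP proteins share a guanine nucleotide-binding domain of the AIG1 type, several are anchored in intracellular membranes, and in mammals their genes lie side by side. They are best known from lymphocytes, where they act in the survival and homeostasis of T and B cells; loss of Gimap5 causes lymphopenia in rodents and impairs blood stem cells in the mouse. Gimap1 is needed for mature T and B cells, Gimap4 has been tied to T cell apoptosis, Gimap6 binds an ATG8-family protein of the autophagy machinery, and Gimap8 is a long member with several GTPase domains. Gimap3 is a close relative of Gimap5 that is linked to mitochondria in the mouse.

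The cluster spans 124 kb, chr6:48647186-48770851 on GRCm38 (also called mm10), in the order Gimap8, Gimap9, Gimap4, Gimap6, Gimap7, Gimap1, Gimap5, Gimap3, with 6 genes on the plus strand and Gimap6 and Gimap3 on the minus strand. To show the regulatory sequence in front of members with opposite patterns, the 250 bases before the RefSeq start site (GRCm38.p6) are printed for a pair that was higher in HSCs and for the pair that was higher in MPPs. The windows are chr6:48770852-48771101 on the minus strand for Gimap3, chr6:48745947-48746196 on the plus strand for Gimap5, chr6:48675885-48676134 on the plus strand for Gimap9 and chr6:48718371-48718620 on the plus strand for Gimap7. Capitals mark AGGAAG, a core of ETS-factor motifs, and, in Gimap7, ACCACA, the reverse complement of the RUNX motif TGTGGT.
Gimap3: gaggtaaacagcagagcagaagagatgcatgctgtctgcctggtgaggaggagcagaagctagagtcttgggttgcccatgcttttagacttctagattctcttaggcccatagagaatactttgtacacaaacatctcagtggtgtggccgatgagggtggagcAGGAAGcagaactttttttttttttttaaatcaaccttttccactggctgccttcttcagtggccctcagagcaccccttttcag
Gimap5: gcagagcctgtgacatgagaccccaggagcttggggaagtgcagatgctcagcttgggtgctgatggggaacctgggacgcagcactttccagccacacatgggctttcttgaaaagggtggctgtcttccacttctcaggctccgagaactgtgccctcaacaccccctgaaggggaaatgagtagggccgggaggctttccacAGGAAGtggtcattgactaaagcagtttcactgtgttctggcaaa
Gimap9: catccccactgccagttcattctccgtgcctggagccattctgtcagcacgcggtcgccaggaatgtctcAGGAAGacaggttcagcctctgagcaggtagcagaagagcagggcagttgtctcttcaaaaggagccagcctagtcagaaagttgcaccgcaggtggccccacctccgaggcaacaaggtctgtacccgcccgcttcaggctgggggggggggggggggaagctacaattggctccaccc
Gimap7: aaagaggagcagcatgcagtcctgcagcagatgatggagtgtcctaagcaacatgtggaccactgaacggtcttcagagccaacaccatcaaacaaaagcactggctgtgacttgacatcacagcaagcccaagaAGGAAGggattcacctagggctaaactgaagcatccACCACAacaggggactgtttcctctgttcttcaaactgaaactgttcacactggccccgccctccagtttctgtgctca
The ETS motif AGGAAG or its reverse complement CTTCCT occurred in 7 of 9 Gimap windows (Gimap8 has a pair of annotated starts) and in 29.5% of 32851 such windows of all genes. It was present in front of the members higher in HSCs and in front of those higher in MPPs alike, and the window of Gimap6 did not hold it. TGTGGT, on either strand, occurred in the windows of Gimap1, Gimap4 and Gimap7 and in 14.0% of all windows. The GATA motif AGATAA and the E-box CAGCTG were found in 0 of 9 Gimap windows, against 9.99% and 13.0% of all windows. The motifs marked in the printed windows did not overlap. These are letter matches only, and binding was not measured.

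For the genes that divide HSCs from MPPs, the libraries went the way of their gates. Slamf1, which encodes CD150, stood at 2219, 2144 and 17 in GFP+ HSCs, GFP- HSCs and MPPs, and Cd48 at 64, 168 and 7744. Cd48 also differed between the HSC fractions, 2.625-fold lower in GFP+ than in GFP- HSCs. Pdzk1ip1 stood at 5659, 3673 and 290. Kit and Ly6a, the genes of c-Kit and Sca-1, were highest in GFP+ HSCs although all groups shared that gate. Kit stood at 47772, 42967 and 23579, and Ly6a at 2702, 2184 and 1767. All values are levels, meaning normalized counts per gene as scaled by the authors, and over all genes they summed to 25311805, 25375047 and 26689660. Ratios are log2 of (level + 5) in both libraries, folds of single genes are ratios of the levels, and a difference is called at 2-fold or more among the 11951 genes whose level averaged 50 or more across the libraries. All 8 members passed that minimum.

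All 8 members had a level above 0 in every library, and the family as a whole was highest in GFP+ HSCs. The summed level was 21761 in GFP+ HSCs, 17617 in GFP- HSCs and 11695 in MPPs, or 0.0860%, 0.0694% and 0.0438% of the levels of all genes. The sum was thus 1.24-fold higher in GFP+ than in GFP- HSCs, 1.51-fold higher in GFP- HSCs and 1.86-fold higher in GFP+ HSCs when set against MPPs. Gimap6 made up 50.9%, 52.1% and 56.4% of the sum, whose levels are not divided by gene length. Per kilobase of exon its shares were 39.0%, 40.0% and 41.7%. Without Gimap6 the folds of the summed level were 1.27, 1.65 and 2.09. The median log2 ratio of the members was 0.29, 0.80 and 1.28 for these comparisons, beside 0.01, -0.01 and 0.01 over all genes compared.

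**Figure D1:**
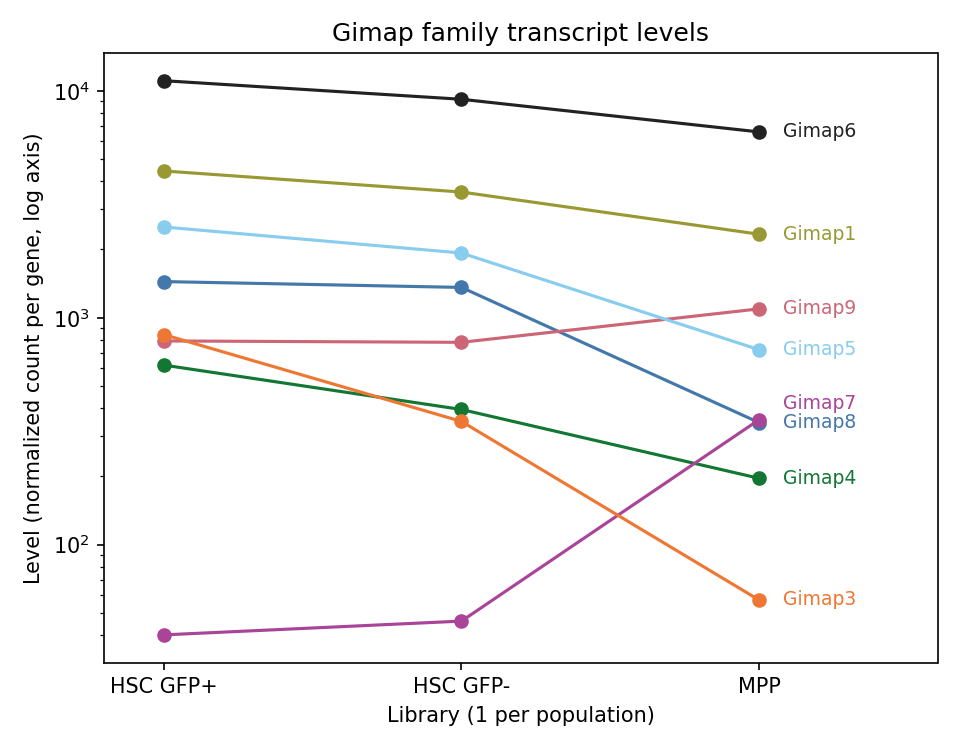
Levels of the 8 Gimap genes (normalized counts, log axis) in the libraries of GFP+ HSCs, GFP- HSCs and MPPs; each point is 1 library and lines join the values of a gene. Gimap6 leads at 11083, 9180 and 6591, Gimap3 is lowest in MPPs at 57, and Gimap7 and Gimap9 run against the other 6 members.

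The pattern was not shared by every member. Gimap1, Gimap3, Gimap4, Gimap5, Gimap6 and Gimap8 were ordered GFP+ HSC, GFP- HSC, MPP from high to low, whereas Gimap7 and Gimap9 were highest in MPPs. Counted by direction alone, 7 of 8 members were higher in GFP+ than in GFP- HSCs, where 51.7% of all genes compared were. The same count was 6 of 8 for GFP- HSCs over MPPs, beside 49.2% of all genes, and 6 of 8 for GFP+ HSCs over MPPs, beside 50.7%. Higher at both steps were 6 of 8 members and 33.8% of all genes.

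Gimap6 was the most abundant member, at 11083 in GFP+ HSCs, 9180 in GFP- HSCs and 6591 in MPPs. Gimap1, the next, stood at 4434, 3581 and 2334 in the same order. Both differed from library to library in small steps, and none of the steps reached 2-fold: Gimap6 was 1.21-fold higher in GFP+ than in GFP- HSCs and exceeded MPPs 1.39-fold in GFP- HSCs, and Gimap1 did so 1.24-fold and 1.53-fold.

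Gimap5, the member whose loss impairs stem cells in the mouse, stood at 2511 in GFP+ HSCs, 1928 in GFP- HSCs and 723 in MPPs. It was 1.30-fold higher in GFP+ than in GFP- HSCs, and GFP- HSCs exceeded MPPs 2.67-fold. Its close relative Gimap3 showed the widest range of the HSC-high members, at 842 in GFP+ HSCs, 349 in GFP- HSCs and 57 in MPPs. Gimap3 was 2.41-fold higher in GFP+ than in GFP- HSCs, and relative to MPPs it was 6.12-fold higher in GFP- HSCs and 14.8-fold higher in GFP+ HSCs. It had the 14th highest ratio of the 11951 genes between the HSC fractions. It was 1 of 21 genes, 0.176% of those compared, that were at least 2-fold higher at both steps.

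Gimap8 stood at 1443 in GFP+ HSCs, 1360 in GFP- HSCs and 345 in MPPs. Almost all of its difference lay between the gates, at 3.94-fold for GFP- HSCs over MPPs against 1.06-fold for GFP+ over GFP- HSCs. Gimap4 stood at 618, 394 and 196 in the same order, with 1.57-fold between the HSC fractions and 2.01-fold between GFP- HSCs and MPPs. On the scale of log2 (level + 5) the step of Gimap4 between GFP- HSCs and MPPs was 0.99, just under the 2-fold call.

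Gimap7 and Gimap9 went the other way. Gimap7, whose human counterpart dimerizes through its GTPase domain, was near the bottom of the scale in stem cells, at 40 in GFP+ HSCs and 46 in GFP- HSCs, against 355 in MPPs. Relative to MPPs it was 8.88-fold lower in GFP+ HSCs and 7.72-fold lower in GFP- HSCs, and its ratio of GFP- HSCs to MPPs was the 140th lowest of 11951. Gimap9 stood at 790, 779 and 1094 in the same order and was 1.38-fold lower in GFP+ HSCs and 1.40-fold lower in GFP- HSCs, relative to MPPs. Between the HSC fractions both were nearly level, with log2 ratios of -0.18 for Gimap7 and 0.02 for Gimap9. Together they made up 3.81% of the summed level in GFP+ HSCs, 4.68% in GFP- HSCs and 12.4% in MPPs.

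By the 2-fold rule, 1 member was higher and 0 were lower in GFP+ than in GFP- HSCs. Over all genes compared those shares were 0.41% higher and 0.87% lower, or 1.28% in either direction. For GFP- HSCs against MPPs, 3 members (Gimap3, Gimap8, Gimap5) were called higher and 1 (Gimap7) was called lower, beside 11.6% and 5.53% of all genes, 17.1% together. For GFP+ HSCs against MPPs, Gimap4 joined them, giving 4 higher and 1 lower, beside 13.7% and 8.6% of all genes, 22.3% together. The comparisons share libraries, and the family was chosen with these ratios known, so the counts say nothing on how unusual the family is.

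For comparison between members, levels were also taken per kilobase of exon, using the union of protein-coding exons of GENCODE M21. In GFP+ HSCs the order of levels per kilobase was Gimap6 (3472), Gimap1 (2591), Gimap5 (1286), Gimap9 (481), Gimap8 (390), Gimap4 (336), Gimap3 (327) and Gimap7 (29.5). In GFP- HSCs it was Gimap6 (2876), Gimap1 (2093), Gimap5 (987), Gimap9 (474), Gimap8 (368), Gimap4 (214), Gimap3 (135) and Gimap7 (33.9). In MPPs Gimap6 (2065) and Gimap1 (1364) again led, followed by Gimap9 (666), Gimap5 (370), Gimap7 (262), Gimap4 (107), Gimap8 (93.2) and Gimap3 (22.1). Gimap7 and Gimap3 thus exchanged the last place between stem cells and progenitors. Neighbours in these orders cannot be told apart by any spread, since there were no replicates, and the gap between Gimap4 and Gimap3 in GFP+ HSCs was small. The order of that pair, that of Gimap4 and Gimap8 in MPPs, and the size of the lead of Gimap6 depended on the length used. The ratio of Gimap5 to Gimap3 per kilobase was 3.94 in GFP+ HSCs, 7.29 in GFP- HSCs and 16.7 in MPPs.

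**Figure D2:**
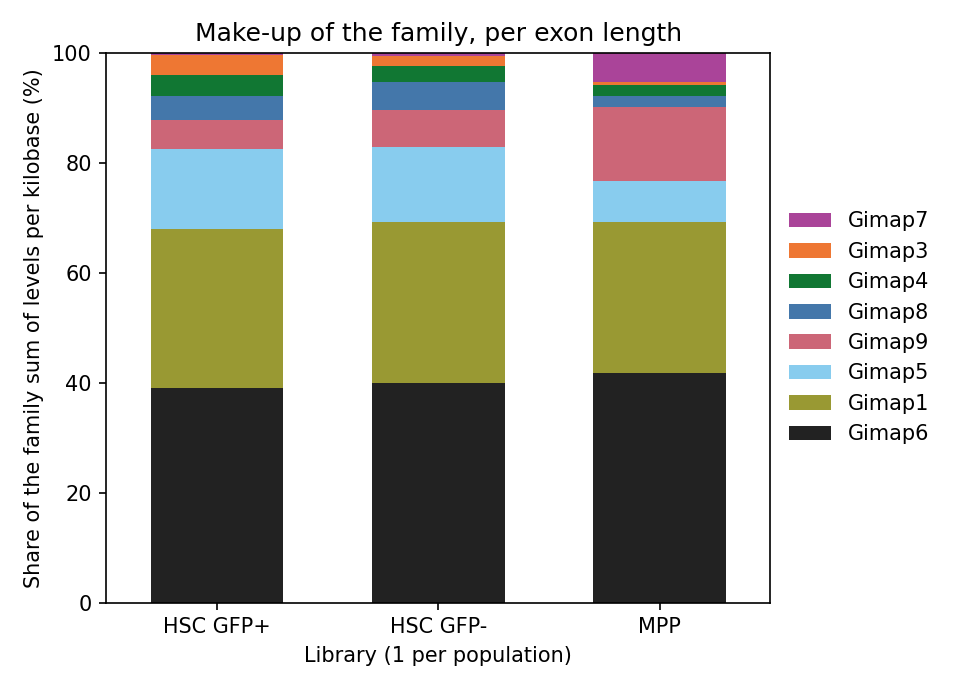
Share of each Gimap gene in the family's summed level per kilobase of exon (%, bars from 0 to 100) in the libraries of GFP+ HSCs, GFP- HSCs and MPPs. Gimap6 and Gimap1 hold most of each bar, and Gimap9 and Gimap7 together take the larger part of the rest in MPPs, at 13.5% and 5.29%.

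The family is built of related coding sequences, and likeness of sequence was set beside likeness of level pattern for the 28 pairs. The pattern distance is the Euclidean distance between log2 (level + 5) of both genes over the 3 libraries after each gene's own mean is taken off. Gimap3 and Gimap5 were the most alike in coding sequence, with 87.1% identical columns in a global alignment, followed by Gimap7 and Gimap9 with 65.1%. The remaining pairs had between 31.1% and 56.9%, the lowest values being those of the long Gimap8. The pair of closest sequence, Gimap3 and Gimap5, was higher in HSCs in both members, and the next pair, Gimap7 and Gimap9, was higher in MPPs in both members. Their pattern distances, 1.41 and 1.99, were near and above the median of 1.465 over the 28 pairs. The closest level patterns belonged to other pairs, Gimap1 and Gimap6 at a distance of 0.13 with 48.5% identity and Gimap4 and Gimap5 at 0.30 with 52.6%. Gimap3 and Gimap7 were farthest apart, at 5.05. The pairs share genes and libraries, so they are not independent points.

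**Figure D3:**
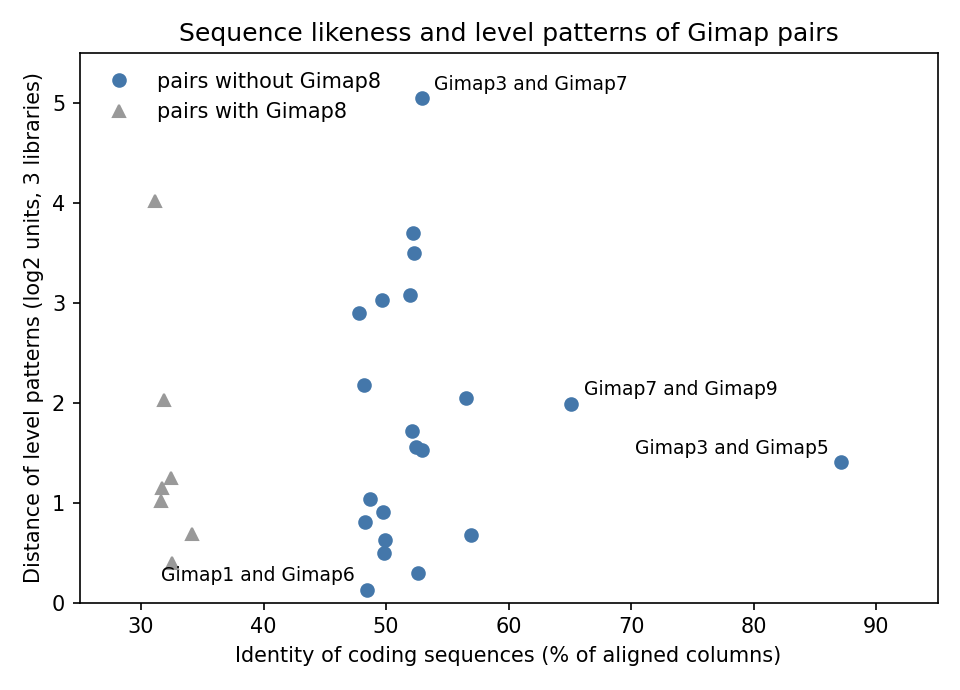
Identity of coding sequences (% of aligned columns) against the distance between level patterns (log2 units over 3 libraries) for the 28 pairs of Gimap genes, with pairs that include Gimap8 as triangles. Gimap3 with Gimap5 and Gimap7 with Gimap9 stand to the right at distances of 1.41 and 1.99, and Gimap1 with Gimap6 lies lowest at 0.13.

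Reads from near-identical stretches could be assigned to either gene or dropped, so the shared sequence was measured. Of the 50-base fragments of the annotated transcript, 9.07% in Gimap3 and 9.98% in Gimap5 occurred in the other gene. The summed level of Gimap3 and Gimap5 does not depend on how assigned reads are split between them, though dropped reads would be missing from it. That sum was 3353 in GFP+ HSCs, 2277 in GFP- HSCs and 780 in MPPs, a fold of 1.47 for GFP+ over GFP- HSCs and of 2.92 for GFP- HSCs over MPPs. Gimap4, Gimap6, Gimap8 and Gimap9 shared 0 fragments with any other annotated transcript. Gimap7, Gimap1, Gimap5 and Gimap3 shared 2.62%, 14.0%, 15.1% and 9.83% with other genes, including the annotated readthrough gene Gm28053. Gimap1 is also overlapped on the opposite strand by Gimap1os, and the library chemistry does not mark the strand. Reads from the stretches that Gimap1 and Gimap1os share therefore cannot be told apart.

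Ratios of genes around the cluster spanned less than those of the family. Of 20 protein-coding RefSeq genes within 500 kb, 19 were in the table and 12 passed the minimum mean level. Between GFP+ and GFP- HSCs, 0 of 12 were 2-fold apart, beside 1.28% of all genes compared. Their median log2 ratio was 0.12. For GFP- HSCs against MPPs they ranged from -1.93 to 1.30, beside -2.82 to 2.51 in the family. The median was 0.11. Zfp467 was at least 2-fold higher (1817, 1522 and 614 in GFP+ HSCs, GFP- HSCs and MPPs). The predicted gene Gm5111 was at least 2-fold lower (295, 321 and 1238). Over all genes compared, 11.6% were called higher and 5.53% lower. Zfp775, which lies 25.6 kb from the cluster and encodes a zinc finger protein, stood at 344, 316 and 455. On the other side Tmem176b, 63.0 kb away, stood at 10911, 10481 and 9113, and its neighbour Tmem176a at 4037, 3575 and 3015. Both Tmem176 genes were high in all 3 libraries and far below 2-fold apart. The members highest in MPPs lay among those higher in HSCs, as Gimap9 lies between Gimap8 and Gimap4, and Gimap7 between Gimap6 and Gimap1.

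**Figure D4:**
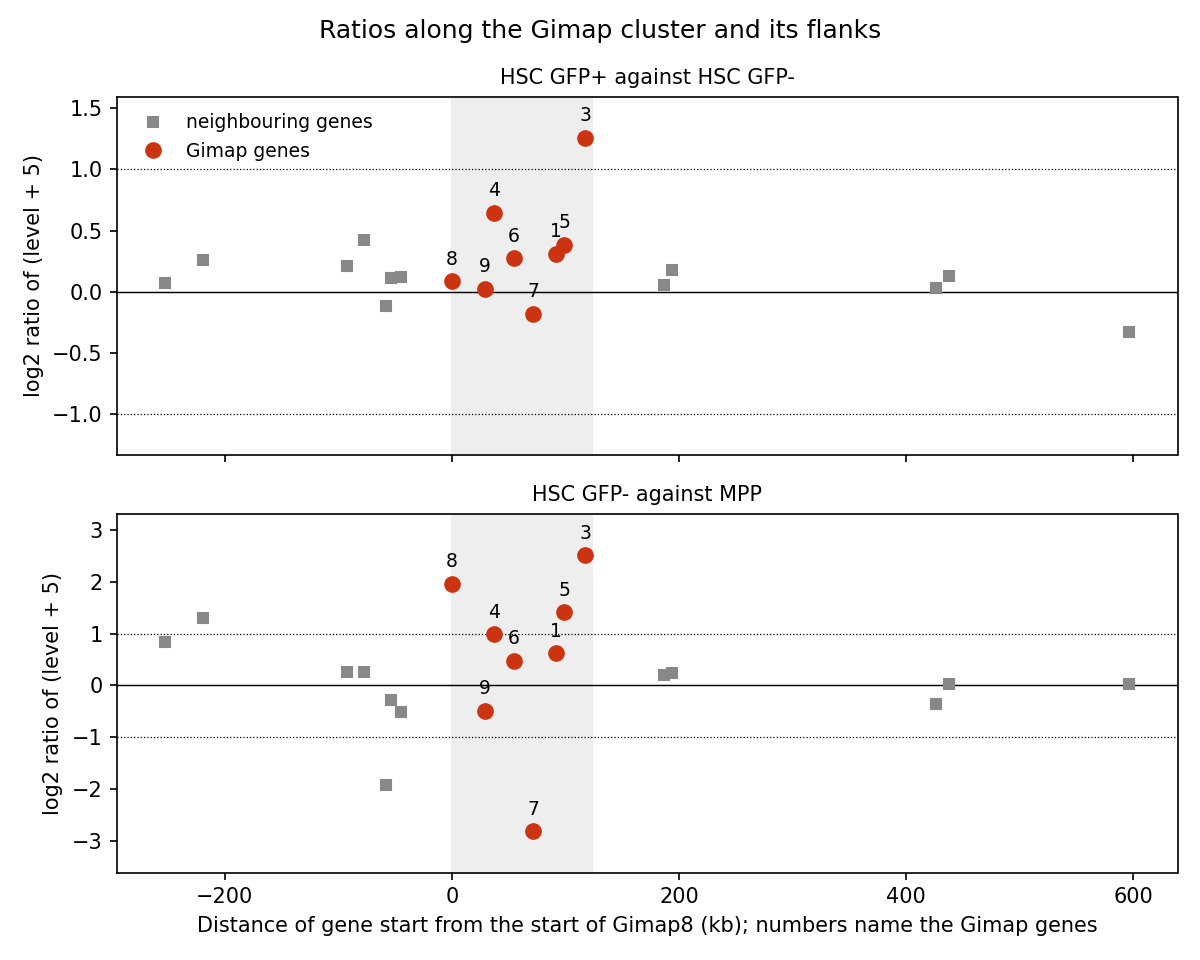
Log2 ratios of (level + 5) along the cluster for GFP+ against GFP- HSCs (top) and GFP- HSCs against MPPs (bottom), plotted against the distance of each gene's start from the start of Gimap8 in kb. Red points are Gimap genes named by number, grey squares are the 12 neighbours, shading marks the cluster and dotted lines mark 2-fold; Gimap3 is highest in both panels at 1.26 and 2.51, and Gimap7 is lowest below at -2.82.

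Other immune GTPases were compared as a separate list of GTPase genes. The immunity-related GTPases and guanylate-binding proteins, which interferons induce, were taken with Mx1 and Mx2 as 16 genes, all past the minimum. Between GFP+ and GFP- HSCs, 14 were higher by any amount, beside 51.7% of all genes. In that comparison 0 were 2-fold apart, beside 1.28% of all genes, and the median log2 ratio was 0.37. For GFP- HSCs against MPPs the median was 0.70. Beside 11.6% and 5.53% of all genes, 5 of 16 were at least 2-fold higher and 0 lower. Those were Gbp4, Gbp6, Gbp8, Gbp9 and Iigp1, and Gbp9 was farthest, at 1331 in GFP+ HSCs, 770 in GFP- HSCs and 48 in MPPs. The most abundant, Gbp7, stood at 6693, 5796 and 3709. Their medians lay near those of the Gimap genes, at 0.29 and 0.80.

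Genes whose products have been reported to bind GIMAP proteins, or belong to the same survival and autophagy machinery, were closer to level than the family. Of 14 such genes, 0 were called between GFP+ and GFP- HSCs, beside 1.28% of all genes compared. Their median log2 ratio was -0.12. For GFP- HSCs against MPPs the median was 0.01, and only Map1lc3a, an ATG8-family gene, was called, beside 17.1% of all genes. Map1lc3a stood at 1459 in GFP+ HSCs, 1361 in GFP- HSCs and 668 in MPPs. Mcl1, the anti-apoptotic BCL2 relative, stood at 44092, 43985 and 26513, and the chaperone gene Hspa8 at 4985, 6036 and 9694. Bcl2 stood at 3808, 4138 and 5654, so Mcl1 was higher and Bcl2 and Hspa8 were lower in both HSC libraries than in MPPs. Gabarapl2, whose product binds Gimap6, was level at 129, 140 and 130.

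Transcription regulators of lymphoid cells were mixed. Of 20, 15 passed the minimum. Between GFP+ and GFP- HSCs only Runx3 was called, lower at 456 against 1277, beside 0.87% of all genes called lower and 0.41% called higher. For GFP- HSCs against MPPs, 3 were called higher and 4 lower, beside 11.6% and 5.53% of all genes, and the median log2 ratio was 0.05. The higher ones were Hes1 (3613, 3403 and 202 in GFP+ HSCs, GFP- HSCs and MPPs), Gata3 (1842, 1527 and 620) and Foxo1 (2419, 1803 and 792). The lower ones were Satb1 (513, 455 and 8841), Tcf7 (10, 19 and 216), Notch1 (2365, 1725 and 6240) and Runx3 (2695 in MPPs). All 3 higher genes had the order of Gimap5, and all 4 lower genes had the direction of Gimap7 between HSCs and MPPs, so the list as a whole followed neither.

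Since Gimap genes are abundant in lymphocytes and endothelium, markers of other cells were read beside them. The 20 T cell markers summed to 9479 in GFP+ HSCs, 8835 in GFP- HSCs and 10154 in MPPs, most of it Ptprcap (7375, 6591 and 6000). The defining markers Cd3e, Cd3g and Zap70 were listed at 0 in both HSC libraries and at 16, 8 and 24 in MPPs. In all, 4 of 20 were at 0 in GFP+ HSCs, 7 in GFP- HSCs and 0 in MPPs. Of 9 past the minimum, 5 were called lower in GFP- HSCs relative to MPPs (Lck, Cd4, Cd6, Il7r and Ccr7) and 1 higher (Cd247, at 166 against 73). Over all genes compared, 5.53% were called lower and 11.6% higher. Lck stood at 370, 399 and 1784. Between GFP+ and GFP- HSCs only Cd6 was called, with a level of 9 against a listed 0, beside 1.28% of all genes. These lower markers ran in the direction of Gimap7 and Gimap9, and their part in those differences was not tested. NK cell markers summed to 536, 1219 and 6664, most of it Nkg7 in GFP- HSCs and MPPs, and 2 of 12 passed the minimum. At 0 were 9 of 12 in GFP+ HSCs, 6 in GFP- HSCs and 0 in MPPs. Nkg7, called lower in GFP- HSCs relative to MPPs as were 5.53% of all genes, stood at 267, 928 and 6433. It was also called lower in GFP+ than in GFP- HSCs, as were 0.87% of all genes. Klrb1c, called higher in GFP- HSCs relative to MPPs as were 11.6% of all genes, stood at 266, 281 and 39. B cell markers summed to 1121, 885 and 1807, and 3 of 12 passed the minimum. Of these, 1 was called higher and 1 lower in GFP- HSCs relative to MPPs, beside 11.6% and 5.53% of all genes. The higher one was Cr2 (112, 64 and 11) and the lower one Blnk (48, 27 and 269). Cd79b, the most abundant, stood at 870, 749 and 1109, and Ms4a1 at 0, 0 and 19.

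Endothelial markers summed to 28056 in GFP+ HSCs, 23701 in GFP- HSCs and 12600 in MPPs, so their sum had the same order as the Gimap sum. Of 12 past the minimum, 7 were called higher (Tie1, Tek, Esam, Kdr, Ramp2, Cldn5 and Robo4) and 1 lower (Egfl7) for GFP- HSCs against MPPs, with a median log2 ratio of 1.69. Over all genes compared, 11.6% were called higher and 5.53% lower. The list was led by Tie1 (9696, 7832 and 1665) and Esam (5395, 4564 and 442), which stem cells themselves are known to express. Cdh5, the endothelial cadherin gene, stood at 3, 10 and 10, and Flt1 at 6, 6 and 14. Neutrophil markers summed to 1757 in GFP+ HSCs, 837 in GFP- HSCs and 862 in MPPs. All 7 past the minimum were higher in GFP+ than in GFP- HSCs, beside 51.7% of all genes compared. At least 2-fold higher were 3 of them (Chi3l3, Ngp and Lcn2), beside 0.41% of all genes. These 3 stood at 183, 499 and 85 in GFP+ HSCs against 12, 165 and 38 in GFP- HSCs, low levels of unknown error. In any library, 0 of the 10 were listed at 0. This list moved with the step of Gimap3 between the HSC fractions, and its part in that step was not tested.

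**Figure D5:**
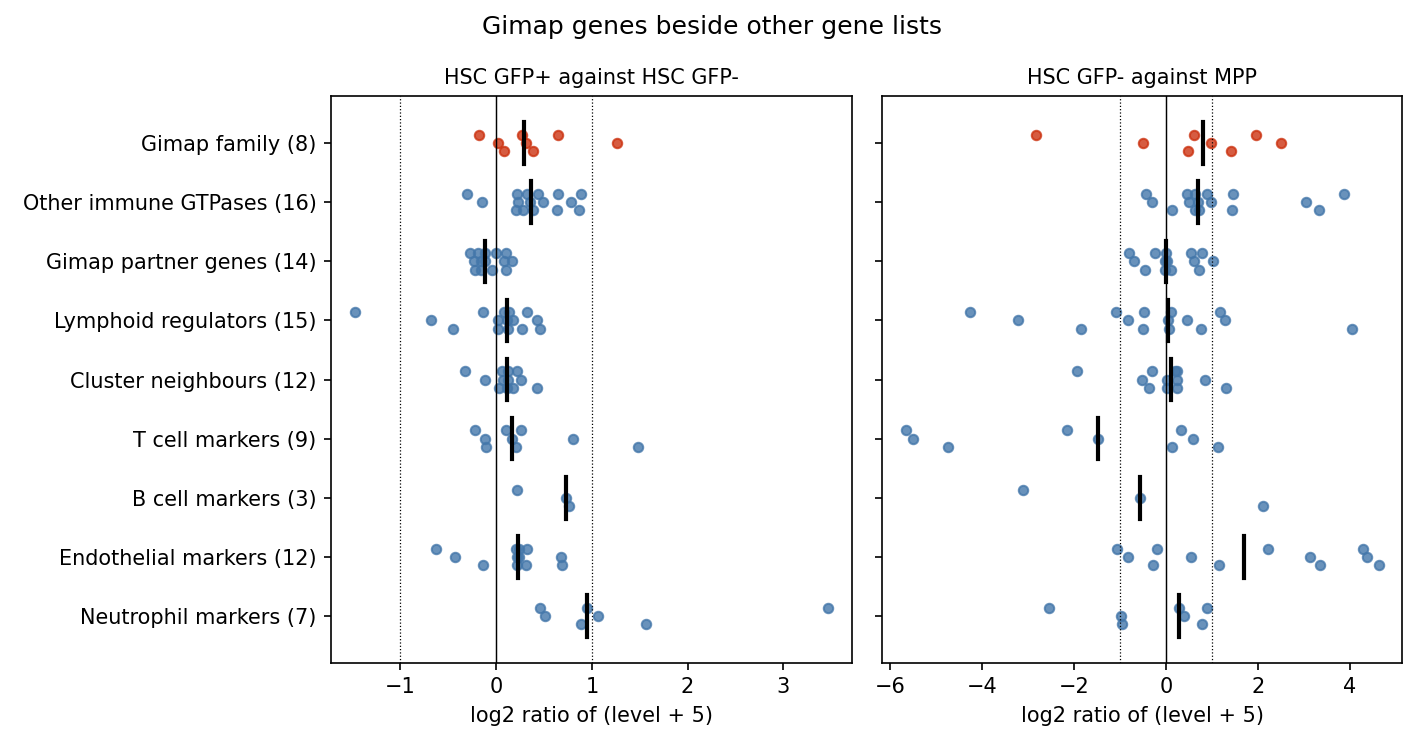
Log2 ratios of (level + 5) of single genes in 9 lists for GFP+ against GFP- HSCs (left) and GFP- HSCs against MPPs (right); each point is a gene averaging 50 or more, numbers in brackets count them, black bars are medians and dotted lines mark 2-fold. The Gimap medians are 0.29 and 0.80, with Gimap3 the highest member in both panels and Gimap7 the lowest.

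The genes whose levels ran most like the family's were found by the same pattern distance. Among 10547 named genes averaging 100 or more, those nearest to the summed Gimap level were Mmaa (479, 386 and 254 in GFP+ HSCs, GFP- HSCs and MPPs), Zcchc3 (631, 507 and 337), Lrig2 (2134, 1753 and 1153), Sfi1 (1784, 1430 and 941) and Aifm2 (678, 559 and 367), all within 0.021. With only 3 libraries the pattern was a common one, and 650 genes lay within 0.2 of it. Gimap3 had fewer genes near it. The distance is not scaled for the size of differences between libraries, which were larger for Gimap3 than for the sum. Their counts of near genes therefore cannot be compared directly. Only Emr4, which encodes an adhesion G protein-coupled receptor, lay within 0.2 of Gimap3, at 0.10, with levels of 218, 98 and 12. Fam171b (283, 154 and 20) and Setbp1 (213, 120 and 12) followed at 0.29 and 0.34.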

How the data were processed

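The authors deposited 1 table of normalized counts per gene, whole numbers treated here as a score because the size factors and reads are not given; depth is therefore unknown and no counting interval was computed. STAR, DESeq2 and the build mm10 are named in the submitters' processing notes; their roles, versions and the annotation are not stated there. Per the labels' protocols, RNA came from TRIzol and PicoPure extraction and cDNA from the SMART-seq v4 kit, which copies full-length transcripts by PCR without molecular identifiers. Levels of one gene were compared between libraries as scaled by the authors. Orders of the members were given per length. Sums, shares of the summed level and the naming of the most abundant genes rest on levels not divided by length. Differences between libraries in input or amplification could not be checked. The columns neg and pos were read as GFP- and GFP+ HSCs.

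Of 23420 rows, 27 with a date in place of a symbol were left out. Log2 ratios used a pseudocount of 5, which understates differences of low genes, and genes averaging 50 or more; the script was tested on simulated libraries. The members, the 9 hand-made comparison lists and the rule for named genes were chosen with earlier results of these data known. All members are named, and further names were drawn from the sort genes, partner and neighbour genes, members of other lists that were abundant or 2-fold apart, and the nearest patterns (5 to the sum, 3 to Gimap3). Some genes outside that rule are named as zero or defining markers, chosen after their values were seen. Results were recomputed with a pseudocount of 1 or 20, with a minimum mean of 10, 200 or none, after rescaling to equal totals or upper quartiles, and with lowess trend removal, thresholds of 1.5-fold and 4-fold, and a sum without Gimap6. Promoters and positions came from RefSeq (GRCm38.p6), with all 8 members matched by symbol, and exons and transcripts from GENCODE M21; for each gene the transcript with the longest coding sequence was used. Python 3.11.15, numpy 2.4.6, pandas 2.3.3, statsmodels 0.14.6, Biopython 1.88 and matplotlib 3.10.9 were used.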

Additional observations from a re-analysis of the deposited data

How the results depend on the processing

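With 1 library per population no library could be left out and no spread is known, and the unknown depth leaves the error of low levels, such as those of Gimap7 in HSCs and Gimap3 in MPPs, without a bound. No paired analysis was possible because no result comes from a test and each group has 1 library. No direction between libraries of a member, the sum or the median turned under any alternative run. The number of members 2-fold apart between GFP+ and GFP- HSCs, 1 as reported, was 2 at a 1.5-fold threshold and 0 at 4-fold; at 4-fold, set against MPPs, it was 2 in GFP- HSCs and 3 in GFP+ HSCs. Without Gimap6 the log2 ratio of the sum for GFP+ HSCs against MPPs was 1.06, past 2-fold. Gimap4 passed 2-fold for GFP- HSCs against MPPs narrowly with a pseudocount of 1 and at 1.06 and 1.07 with equal totals and upper quartiles, and Gimap1 did narrowly for GFP+ HSCs against MPPs with equal totals or the trend removed. A minimum mean of 200 left out Gimap7. Rescaling moved the median of all genes by at most 0.08. Gimap3 ranged from 1.22 to 1.27 between the HSC fractions. The sum has no pseudocount or minimum, and trend removal was not run on it. With the length of 1 transcript in place of all exons, a choice added after seeing the data, Gimap4 (343) stood below Gimap3 (392.5) per kilobase in GFP+ HSCs, a log2 difference of -0.20 in place of 0.04. In MPPs Gimap4 (108.6) then stood just below Gimap8 (109.9). The lead of Gimap6 widened with that length. In GFP+ HSCs Gimap6 stood at 6953 per kilobase in place of 3472, and Gimap1 at 2970 in place of 2591.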
